A study of Mus musculus with 8 samples.

Results

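The 4 tumour lines mT3, mT4, mT5 and mT6 are cell lines grown out of tumours that JoMa1 cells formed after transfection with MYCN, and they make up 4 of the 8 arrays of the study. They were taken by their titles, and each line was set against the others over every probe set with a single gene symbol. JoMa1 is a mouse line of neural crest precursor cells, and 3 arrays of untransfected parental JoMa1 served here as background. The remaining array carries the label of JoMa1 transfected with a GFP control. Its Mycn level of 11.73 lay far above the parental mean of 7.42, which goes against that label, so it enters no comparison here and has a coefficient of its own in the fit. The host mice of the tumours were immunocompromised, without a strain, age or site being given in the labels used here. The labels call the tumours independent but do not say whether they grew from a single transfected stock, and they speak of tumours in some fields and of derived lines in others. Each line was measured on 1 array, so no line has a replicate.

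Neural crest precursors give rise to sympathetic neurons, glia, pigment cells and much of the connective tissue of the head, and MYCN is a growth-promoting transcription factor whose gene is amplified in aggressive neuroblastoma. Cells that share an origin and a driver gene can still settle into different states. Hox genes keep a record of position along the body axis, matrix and adhesion genes set how a cell meets its neighbours, and interferon response genes form an antiviral programme switched on by STAT and IRF transcription factors.

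Levels are given as log2 RMA values, so that a difference of 1 is 2-fold, and each gene is read by its brightest probe set. The array medians lay between 6.26 and 6.3. The bacterial trpnX controls, which have no target in mouse RNA, read 3.90 to 4.04 in the lines, a level at which a gene has hardly any signal. On mT3 the added poly-A controls stood at 8.43 against 7.83 to 7.89 on the other lines, and the hybridisation control bioB at 9.17 against 8.86 to 8.88. Parental array 3 read 7.70 for bioB, below the other parental arrays at 8.90 and 8.95. The part of these array differences in the results was not tested.

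Mycn and proliferation genes were not called different among the lines. Mycn stood at 14.13 in mT3, 14.08 in mT4, 14.20 in mT5 and 14.26 in mT6. Its other probe sets read 4.53 to 4.69 in the lines against 8.01 to 8.23 in parental cells, and 5.90 to 6.23 against 5.64 to 5.97. The proliferation gene Mki67 read 11.38, 11.59, 11.30 and 11.41 in the same order. The cell cycle inhibitor genes Cdkn2a (12.08 to 12.57) and Cdkn1a (8.08 to 8.35) and the X-inactivation transcript Xist (12.80 to 13.09) also lay within narrow ranges. Of these 5 genes, 0 were called different among the lines, in a limma F test at an adjusted p under 0.05 with at least 2-fold between the highest and the lowest line. The background for that call was 623 of 18193 genes, or 3.42%. The lists for mitosis (24 genes measured), DNA replication (26), ribosome biogenesis (27), MYC metabolic targets (20), the respiratory chain (24) and the proteasome (22) also held 0 called genes. A p that misses the threshold does not show that the lines were alike in them. In DNA replication mT3 was the highest line in 61.5% and the lowest in 0% of the genes, with a median of 0.14. In ribosome biogenesis mT3 was highest in 55.6%, and in mitosis mT5 was lowest in 66.7%, with a median of -0.17. Over all genes mT3 was highest in 25.9% and mT5 lowest in 24.8%.

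Over all genes the lines were further apart than the parental arrays. The median SD of a gene over the 4 lines was 0.13, against 0.08 over the 3 parental arrays. In 838 genes (4.61%) the highest line lay at least 2-fold above the lowest, while 7 genes spanned that much among the parental arrays. A range of at least 4-fold was found in 172 genes. The most distant pair was mT4 and mT5, with 772 probe sets at least 2-fold apart, 570 of them higher in mT5. The closest pair was mT3 and mT6 with 382, and pairs of parental arrays had 4 to 13.

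mT5 stood apart mainly by what it expressed more, and mT4 by what it expressed less. Against the mean of the other 3 lines, 232 genes (1.28% of those tested) were called higher and 34 (0.187%) lower in mT5, together 266 (1.46%). In mT4 46 genes (0.253%) were higher and 151 (0.83%) lower, together 197 (1.08%). In mT3 38 (0.209%) were higher and 81 (0.445%) lower, together 119 (0.654%). In mT6 56 (0.308%) were higher and 72 (0.396%) lower, together 128 (0.704%). A call needed an adjusted p under 0.05 in limma and a difference of at least 1. Because a line is a single array, the residual spread comes from the 3 parental arrays alone, with 2 residual degrees of freedom, and each line is assumed to vary like them. The p-values therefore compare arrays, not lines grown repeatedly, and whether the parental arrays are separate cultures is not in the labels. Without parental array 3 the limma counts were 0 in the F test and 0 for every line, with 816 genes at an unadjusted p under 0.05 in the F test and 152, 221, 288 and 152 for mT3 to mT6. With the GFP-labelled array pooled with the parental arrays, limma called 39 genes in mT5 and 0 in the F test and in the other lines (484 genes at an unadjusted p under 0.05 in the F test, and 107, 152 and 104 for mT3, mT4 and mT6). By size alone, 152 genes were at least 2-fold away in mT3, 221 in mT4, 288 in mT5 and 152 in mT6. Without mT5, the F test called 331 genes among the remaining lines.

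**Figure D1:**
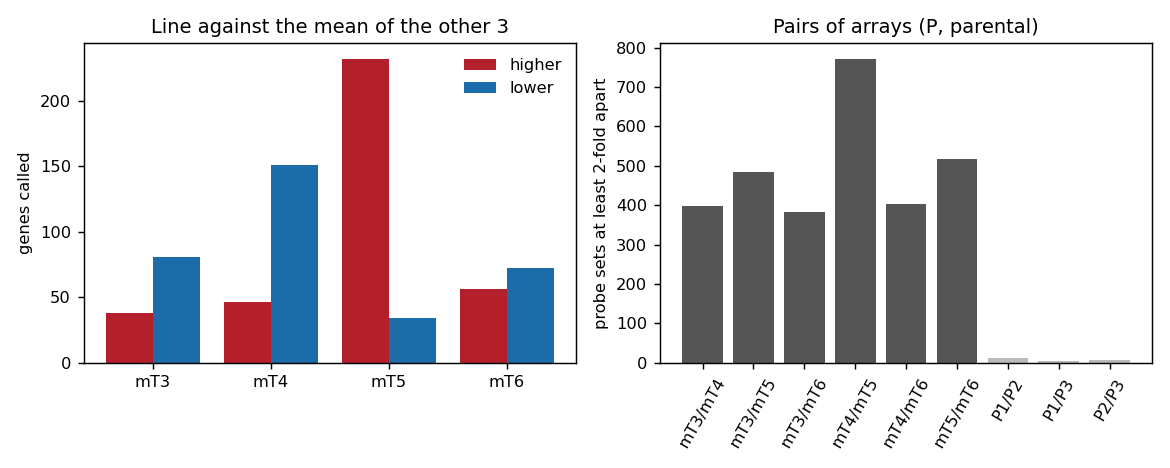
Left, number of genes called higher (red) or lower (blue) in each tumour line against the mean of the other 3 lines (y axis, genes). Right, number of probe sets at least 2-fold apart for each pair of tumour lines (dark bars) and of parental arrays (pale bars, P). mT5 has 232 genes higher and 34 lower, and mT4 and mT5 form the most distant pair with 772 probe sets.

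Set beside the parental cells, the called genes did not all mean that the named line had moved furthest from its origin. Of the 81 genes lower in mT3, 63 had mT3 nearer to the parental mean than the other 3 lines were. Of the 151 genes lower in mT4, mT4 was nearer in 93. Of the 232 genes higher in mT5, the other 3 lines were nearer in 192. The named line was nearer in 12 of 38 genes higher in mT3, 14 of 46 higher in mT4, 10 of 34 lower in mT5, 17 of 56 higher in mT6 and 36 of 72 lower in mT6. These positions are counts only, since the lines share the parental reference.

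The interferon response was graded across the lines, lowest in mT3 and highest in mT5. Of the 32 genes listed, 29 were measured, and 23 of them (79.3%) differed among the lines in limma's F test, against 3.42% of all genes. mT5 held the highest level in 29 of 29 and mT3 the lowest in 28 of 29. The exception was Oasl1, lowest in mT4. Over all genes mT5 was highest in 26.2% and mT3 lowest in 23.5%. The list's median difference from the other lines was -1.26 in mT3, -0.15 in mT4, 1.32 in mT5 and 0.10 in mT6, with medians over all genes within 0.01 of 0. In mT3 17 list members were called lower and 0 higher, and in mT5 19 were called higher and 0 lower. In mT4 2 were lower, and in mT6 0 were called in either direction. These calls too are lost in limma without parental array 3, and the medians of mT4 and mT6 change sign with the line left out, reaching 0.31 in mT4 and 0.57 in mT6 without mT5, and -0.61 and -0.35 without mT3. The list was assembled with earlier results of these arrays known, so its counts describe the lines and are not independent evidence.

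Among the antiviral effectors, Rsad2, which encodes the radical SAM enzyme viperin, read 8.37 in mT3, 9.01 in mT4, 11.54 in mT5 and 10.48 in mT6. Parental cells stood at 7.47 ± 0.11 (SD, n = 3). The difference of mT5 from the other lines was 2.26 (SE 0.11, 4.78-fold, limma adjusted p = 0.00356). Oasl1, an oligoadenylate synthetase-like gene, read 9.16, 9.07, 12.31 and 9.83 in mT3, mT4, mT5 and mT6, against 6.95 ± 0.17 (SD, n = 3) in parental cells. It set mT5 apart by 2.95 (SE 0.14, 7.75-fold, limma adjusted p = 0.00356). The immunity-related GTPase gene Iigp1 read 8.15, 9.68, 11.52 and 10.31, and mT3 lay 2.36 below the other lines (SE 0.24, 5.12-fold, limma adjusted p = 0.0327). In each of these genes mT5 was the top line, and all 4 lines lay above the parental mean.

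Among regulators and sensors, mT3 was lowest and mT5 highest in Irf7, Usp18 and Ifih1. Irf7, the transcription factor that amplifies the type I interferon response, read 6.83, 7.51, 9.83 and 7.74 in mT3, mT4, mT5 and mT6. It was called higher in mT5 (2.47, SE 0.25, limma adjusted p = 0.0156) and not called in mT3, where the difference was -1.53 (adjusted p = 0.0907). Usp18, which restrains signalling from the interferon receptor, read 9.06, 10.38, 12.01 and 10.63 and was called in both lines, with 1.98 in mT5 (SE 0.10) and -1.95 in mT3 (SE 0.10). Ifih1, the sensor of double-stranded RNA, read 9.21, 10.34, 11.30 and 10.41. The chemokine gene Cxcl10 read 10.92, 11.47, 12.76 and 11.25. Outside the list, the interferon-inducible genes Trim30a (7.34, 8.61, 10.99 and 9.23), Gbp6 (6.23, 7.87, 9.88 and 8.10), Ifi27l2a (7.24, 8.60, 11.20 and 10.07) and Phf11d (8.51, 10.63, 12.26 and 10.96) had the same lowest and highest lines. Relative to the parental mean, the list's median stood at 1.30 in mT3, 2.15 in mT4, 3.84 in mT5 and 2.78 in mT6.

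Of the ligands and receptors, only 4 genes of the type I interferon system were examined. The interferon genes Ifnb1 (5.60 to 5.78) and Ifna4 (4.0 to 4.54) were dim in the 4 lines, and the receptor genes Ifnar1 (9.03 to 9.28) and Ifnar2 (10.46 to 10.89) were bright, with 0 of these 4 genes called. These 4 were looked up after the list's values had been seen, and Ifna4 lay near the level of the trpnX controls, where a grading could hardly show. Among 15 measured genes of MHC class I antigen presentation, 1 (6.67%) was called in the F test, against 3.42% of all genes. It was the peptide transporter gene Tap1, at 9.0, 9.37, 10.19 and 9.31. Its dimmer probe sets were not called, with differences of -0.08 to 0.26 in mT5. The medians of that list were -0.39 in mT3 and 0.36 in mT5. Leukocyte markers held 0 called genes of 18, against 3.42% of all genes, with mean levels of 5.70 to 5.76 in the lines. The pan-leukocyte gene Ptprc read 4.05 to 4.14, at the level of the trpnX controls.

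**Figure D2:**
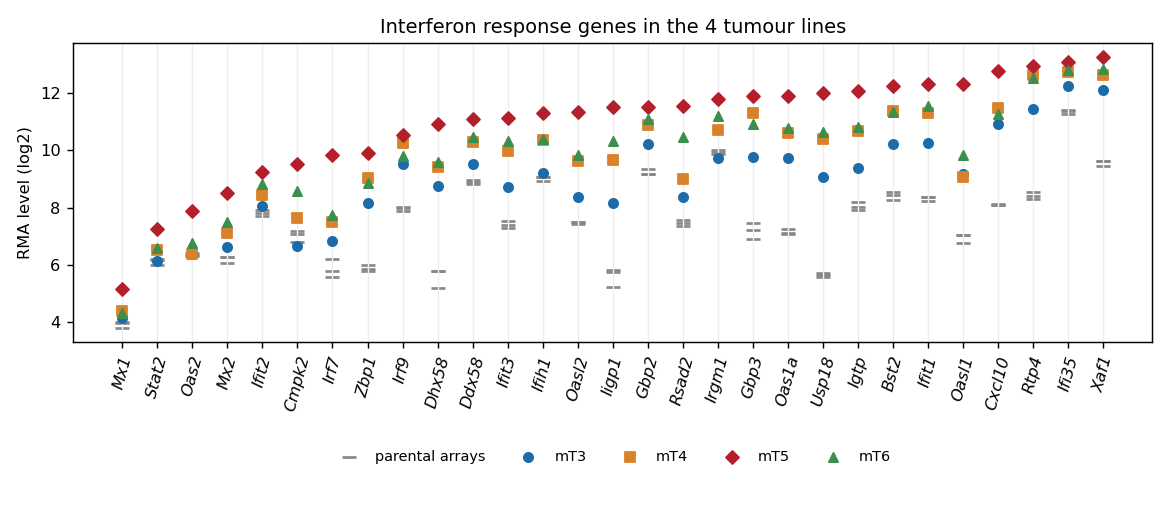
RMA level (y axis, log2) of the 29 measured interferon response genes (x axis, ordered by their level in mT5) in the 4 tumour lines (coloured symbols) and the 3 parental arrays (grey dashes). mT5 is highest of the lines for 29 of 29 genes and mT3 lowest for 28 of 29.

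Promoters are shown for the 3 most variable list genes that hold an interferon-stimulated response element core. It is a sequence linked to STAT and IRF factors, and their binding was not tested. The core, a pair of GAAA blocks with any 2 bases between them, was searched on both strands in RefSeq promoters of mouse assembly GRCm38.p6, which run from 250 bases before to 50 bases after each gene's start. Capitals mark the matches, which appear as the reverse complement where the match lies on the opposite strand. The Rsad2 promoter lies at chr12:26456403-26456702 on the minus strand with 1 match, that of the GTPase gene Igtp at chr11:58199306-58199605 on the plus strand with 1 match, and that of the antiviral gene Ifit3 at chr19:34583279-34583578 on the plus strand with 2 matches.
Rsad2: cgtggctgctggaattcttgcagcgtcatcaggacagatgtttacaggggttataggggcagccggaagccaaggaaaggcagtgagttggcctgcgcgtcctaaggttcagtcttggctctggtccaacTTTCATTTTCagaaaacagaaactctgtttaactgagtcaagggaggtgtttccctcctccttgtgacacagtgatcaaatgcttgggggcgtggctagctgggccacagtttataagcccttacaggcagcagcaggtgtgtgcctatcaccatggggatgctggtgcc
Igtp: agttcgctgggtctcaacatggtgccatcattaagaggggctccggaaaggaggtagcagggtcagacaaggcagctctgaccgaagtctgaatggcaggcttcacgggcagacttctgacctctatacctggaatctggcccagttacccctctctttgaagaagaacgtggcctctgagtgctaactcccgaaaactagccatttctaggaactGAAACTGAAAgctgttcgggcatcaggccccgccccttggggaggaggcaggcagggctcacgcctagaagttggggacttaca
Ifit3: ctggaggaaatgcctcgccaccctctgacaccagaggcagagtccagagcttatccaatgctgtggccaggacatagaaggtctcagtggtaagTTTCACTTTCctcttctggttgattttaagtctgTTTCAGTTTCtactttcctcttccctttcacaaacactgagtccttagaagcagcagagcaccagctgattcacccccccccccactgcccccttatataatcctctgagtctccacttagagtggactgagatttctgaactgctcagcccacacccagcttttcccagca

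Igtp read 9.39 in mT3, 10.68 in mT4, 12.08 in mT5 and 10.82 in mT6, and Ifit3 read 8.71, 9.98, 11.12 and 10.33. Over all 27025 genes with a promoter in the table, 3.99% held the core, and over the 14368 measured ones 3.64%. It was found in 13 of 21 interferon list genes with a promoter there (61.9%), in 20 of 56 genes called lower in mT3 (35.7%) and in 27 of 174 genes called higher in mT5 (15.5%). The other groups of called genes held it in 2.33% to 11.1%. The list itself held 17 of the 81 genes lower in mT3 and 19 of the 232 higher in mT5, so these shares are not separate observations. Promoters of the list genes Oasl1, Irf7, Cmpk2 and Oasl2 lacked the core. Their SD over the lines was 1.51, 1.29, 1.24 and 1.22, above the 1.10 of Igtp. A match is a description of these letters and not a bound site.

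The Hox code differed from line to line, with 12 of 33 measured Hox genes (36.4%) called in the F test, against 3.42% of all genes. In mT5 7 were called higher and 1 lower (1.28% and 0.187% of all genes), and in mT6 0 were higher and 7 lower (0.308% and 0.396%). Hoxd13, the gene at the 5' end of its cluster that patterns the distal limb and hind body, read 5.67 in mT3, 5.80 in mT4, 9.19 in mT5 and 5.58 in mT6. Parental cells were at 5.37 ± 0.06 (SD, n = 3), so mT5 was the line that departed from the parental level, by 3.51 against the other lines (SE 0.09, 11.4-fold, limma adjusted p = 0.00169). Its dimmer probe set read 5.72, 6.06, 6.36 and 5.57 and was not called. Hoxd10 had the same pattern at 4.15, 4.33, 6.92 and 3.98, and Hoxd11 reached 5.40 in mT5 against 4.12 to 4.30 elsewhere. Their neighbours Hoxd8 (9.34 to 10.01) and Hoxd9 (8.71 to 9.72) were bright in the 4 lines, and Hoxd12 (4.64 to 4.77) was dim.

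Of the other clusters, Hoxa9 stood at 11.22 ± 0.07 (SD, n = 3) in parental cells and at 5.14, 8.08, 5.21 and 4.95 in mT3, mT4, mT5 and mT6. mT4 lay 2.98 above the other lines (SE 0.10, 7.89-fold, limma adjusted p = 0.00257), and the gene's dimmer probe set spanned 6.74 to 7.00 without a call. Hoxc8 was 11.47 in parental cells, 9.65 in mT3, 9.27 in mT4, 6.54 in mT5 and 7.05 in mT6, which splits the lines into a higher and a lower pair. Hoxb2, at 9.47 in parental cells, read 9.71, 9.21 and 10.15 in mT3, mT4 and mT5 and 7.13 in mT6. Hoxb3, Hoxb4 and Hoxb6 were highest in mT5, at 7.64, 8.21 and 8.58, against parental means of 9.85, 7.81 and 9.83. Hoxa5, Hoxa10 and Hoxb5, bright in parental cells at 10.84, 9.14 and 8.03, read at most 6.49, 5.78 and 5.85 in any line.

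**Figure D3:**
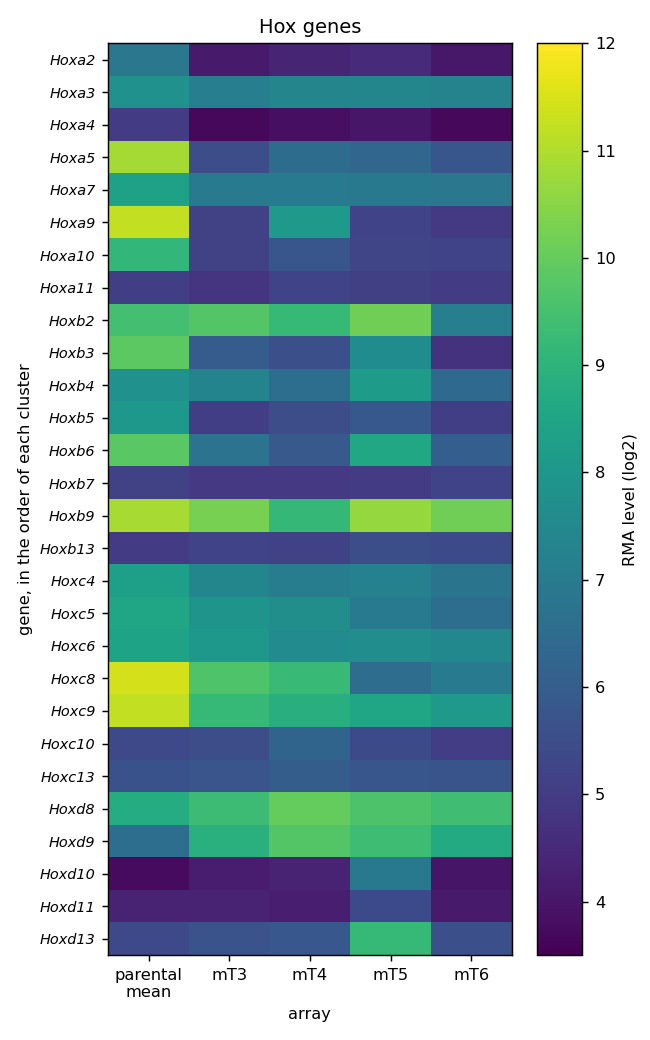
RMA level (colour, log2) of the Hox genes above 5 in at least 1 line or in the parental mean (rows) in the parental mean and each tumour line (columns). Hoxd10 and Hoxd13 are brightest in mT5, at 6.92 and 9.19, Hoxa9 is brightest among the lines in mT4 at 8.08, and Hoxb2 is dimmest in mT6 at 7.13.

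mT5 was the highest line for further genes outside the Hox and interferon lists. Trp63, the p53-family factor of stratified epithelium, read 5.55, 5.51, 8.86 and 5.64 in mT3, mT4, mT5 and mT6 (3.29 in mT5, SE 0.14, 9.78-fold, limma adjusted p = 0.00356). Its 3 dimmer probe sets were not called. Keratinocyte markers as a list held 1 called gene of 9 (11.1%, against 3.42% of all genes), Trp63 itself. Dmrta1, a DM-domain transcription factor gene, read 3.79, 3.74, 7.17 and 4.28. Hapln1, whose product links hyaluronan to proteoglycans, read 3.79, 3.73, 7.14 and 3.84, and all 4 of its probe sets were called higher in mT5. The actin-binding scaffold gene Ppp1r9a (neurabin) read 8.70, 8.76, 11.96 and 7.46. The angiotensin receptor gene Agtr2 read 5.71, 5.06, 8.40 and 5.07. In total 16 genes lay at least 4-fold above every other line in mT5, against 1 in mT3, 3 in mT4 and 3 in mT6.

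Some genes high in mT5 were those that parental cells also express. The neural crest and neural plate factor gene Zic1 stood at 9.43 ± 0.06 (SD, n = 3) in parental cells and at 3.85, 4.72, 7.29 and 3.93 in mT3, mT4, mT5 and mT6, so that mT5 lay between the parental cells and the other lines. The imprinted zinc finger gene Plagl1 read 8.92, 8.87, 10.82 and 8.99 against 11.28 in parental cells. Dimmer probe sets were not called, with mT5 differences of 1.13 for Zic1 and 0.19 and 0.76 for Plagl1. Mt1, a metal-binding metallothionein gene, had the largest difference, at 5.45, 5.95, 9.93 and 6.08 against 10.51 in parental cells (4.10 in mT5, SE 0.10, 17.2-fold, limma adjusted p = 0.00169). The suffix of that probe set, _s_at, marks probes shared between transcripts. The gene's other probe set read 6.02 to 6.32 in the lines with a difference of -0.19 in mT5, and Mt2, the second liver-type metallothionein gene, read 12.45 to 13.11 without a call.

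Of 23 genes of BMP and TGF-beta signalling 4 were called higher in mT5, of 25 of Wnt signalling 3, and of 13 EGF family and ERBB receptor genes 2, each with 0 lower and against 1.28% of all genes higher. The IGF axis had 0 higher and 1 lower of 14, against 0.187% of all genes lower. The ligand subunit gene Inhbb of activin B read 5.71, 5.14, 8.07 and 7.18, and Bmp2, a bone morphogenetic protein gene, read 8.03, 9.16, 10.08 and 8.67. Among receptors, the neuregulin receptor gene Erbb3 stood at 7.48 in mT5 and 5.82 to 5.91 elsewhere, and the Eph receptor gene Epha7 at 9.11 against 6.65 to 7.37. The matrix proteoglycan gene Dcn read 11.17 against 9.08 to 9.63, and the laminin-binding integrin gene Itga6 read 7.38 against 5.27 to 6.15. Dimmer probe sets of Inhbb, Erbb3, Epha7 and Dcn were not called in mT5, with differences of -0.05 to 0.86. Of 19 chemokine genes 5 were called higher in mT5 and 0 lower, against 1.28% and 0.187% of all genes. Cxcl9, a ligand of CXCR3, read 7.07, 8.52, 10.13 and 8.05, and Ccl5, which draws T cells, read 12.37, 12.22, 13.92 and 12.85. Lower in mT5 were the protein kinase A inhibitor gene Pkia (7.27, 9.23, 6.0 and 8.95), the neural cadherin gene Cdh2 (8.85, 9.97, 7.75 and 10.46), the neurotrophic ligand gene Gdnf (8.77, 8.22, 6.75 and 9.44) and the insulin receptor substrate gene Irs1 (9.18, 9.66, 8.38 and 10.12).

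mT4 was marked by lower levels of a small matrix proteoglycan and of several secreted ligands than the other lines had. Bgn, which encodes the matrix proteoglycan biglycan, read 12.73 in mT3, 9.24 in mT4, 13.05 in mT5 and 13.12 in mT6. mT4 thus lay apart from 3 closely grouped lines and nearer to parental cells at 7.73 ± 0.02 (SD, n = 3), by -3.72 against the other lines (SE 0.08, 13.2-fold, limma adjusted p = 0.000812). All 3 probe sets of Bgn were called. Epgn, an EGF receptor ligand gene, read 11.07, 7.33, 11.72 and 9.47. The Wnt antagonist genes Sfrp2 (10.07, 7.60, 9.81 and 9.03) and Dkk2 (10.53, 9.05, 11.50 and 10.94) were lowest in mT4. So were the neutrophil chemokine gene Cxcl3 (4.57, 3.54, 6.36 and 5.56), the interleukin gene Il6 (7.15, 5.82, 7.84 and 7.23), the laminin chain gene Lamb1 (11.08, 9.47, 11.77 and 11.11) and the semaphorin and VEGF co-receptor gene Nrp1 (10.77, 8.11, 9.65 and 9.48). The zinc finger gene Bnc1 read 11.02, 8.06, 11.78 and 10.31. Of 24 hypoxia and glycolysis genes 3 were called lower in mT4, against 0.83% of all genes, among them the oxygen sensor gene Egln3 (9.88, 8.41, 9.51 and 9.58) and the repressor gene Bhlhe40 (9.49, 8.26, 9.76 and 9.37).

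Of 16 cadherin genes 1 was called higher in mT4 and of 21 desmosome and simple epithelial genes 1, against 0.253% of all genes. Integrins had 0 higher and 1 lower of 16, against 0.83% of all genes lower. The mesenchymal cadherin gene Cdh11 stood at 12.69 ± 0.01 (SD, n = 3) in parental cells and at 6.86, 10.50, 7.72 and 5.56 in mT3, mT4, mT5 and mT6, 3.78 higher in mT4 than in the other lines (SE 0.08, 13.8-fold, limma adjusted p = 0.000812). Its dimmer probe set followed, at 4.75, 7.09, 5.26 and 4.06. The neural adhesion gene Cntn1 read 5.69, 7.83, 5.39 and 5.58, and the desmosomal cadherin gene Dsg2 read 6.20, 7.98, 6.03 and 6.02. A dimmer probe set of each was also called higher in mT4, and the rest of both genes were not called. The neuropeptide gene Ucn2 read 7.28 in mT4 and 5.24 to 5.30 elsewhere. Sox2, a factor of neural progenitors and pluripotent cells, read 6.74, 8.94, 7.06 and 7.81, and the siderophore-binding lipocalin gene Lcn2 read 9.79, 11.46, 10.37 and 10.36. In Cntn1, Dsg2 and Ucn2 the other 3 lines lay close together.

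mT6 combined higher levels of a few muscle and contractile genes with lower levels of genes that the other lines shared. Gatm, which makes the creatine precursor, read 4.62 in mT3, 4.92 in mT4, 5.75 in mT5 and 8.58 in mT6 (3.49 in mT6, SE 0.19, 11.2-fold, limma adjusted p = 0.0116). The cytochrome P450 gene Cyp1b1 read 6.80, 5.35, 6.65 and 9.28. Chrna1, the alpha subunit gene of the muscle acetylcholine receptor, read 6.41, 6.22, 6.56 and 8.79. Myod1, the muscle determination factor gene, read 6.60, 6.10, 6.18 and 8.14, and the slow troponin T gene Tnnt1 read 5.73, 5.77, 6.08 and 7.55, both called. Myod1 and Tnnt1 were named after their values had been seen. Of 10 skeletal muscle markers 1 was called higher in mT6, Myod1, against 0.308% of all genes. Myog was at 7.04 in mT6 and 5.69 to 6.12 elsewhere without a call, and Ckm (6.60 to 6.66), Des (7.16 to 7.36) and Myf5 (3.34 to 3.64) were level. Of 16 smooth muscle contraction genes 3 were called higher in mT6, against 0.308% of all genes, among them Cnn1, the calponin gene, at 9.47, 9.63, 10.16 and 11.06.

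Of 20 immediate early genes 1 was called higher and 1 lower in mT6, against 0.308% and 0.396% of all genes. Egr1, an early transcription factor gene of the growth factor response, was higher, at 10.12, 9.69, 10.66 and 11.44. The survival gene Ier3 was lower, at 8.04, 7.64, 7.45 and 6.41. Myc, the close relative of the driver gene, read 9.98, 9.47, 9.55 and 10.61, and differed among the lines in the F test (limma adjusted p = 0.0463) while its mT6 difference of 0.94 did not reach 2-fold. The imprinted gene Mest read 8.81, 7.94, 9.24 and 10.30 against 12.74 in parental cells.

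Tex19.1, a germ-line and placental gene, gave mT6 its largest difference, at 10.88, 11.36, 9.02 and 6.60 in mT3, mT4, mT5 and mT6 (-3.82 in mT6, SE 0.19, 14.1-fold, limma adjusted p = 0.0116). mT6 was there close to the parental mean of 6.36. The germ-cell list held 0 called genes of 17 in any line, and 0 in the F test against 3.42% of all genes. Vegfc, the lymphatic growth factor gene, read 7.70, 8.71, 7.67 and 4.81, and all 3 of its probe sets were called lower in mT6. The matrix gene Fbln2 read 10.85, 9.11, 10.07 and 7.80, the axon guidance receptor gene Robo1 read 7.28, 9.24, 8.89 and 6.55, and the desmoplakin gene Dsp read 6.44, 5.89, 5.83 and 4.57. Dimmer probe sets of these genes were not called in mT6, with differences of -0.71 to 0.08. Gata3, a factor of sympathetic neurons, read 8.26, 7.08, 8.03 and 6.16.

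mT3 was also set apart by genes outside the interferon list. Its 119 genes called in either direction, against 128 in mT6, included 17 members of that list. Il33, an alarmin cytokine gene, read 10.98 in mT3 and 8.58, 8.48 and 8.51 in mT4, mT5 and mT6, against 9.72 ± 0.06 (SD, n = 3) in parental cells. Parental cells thus lay between mT3 and the 3 closely grouped lines (2.46 in mT3, SE 0.09, 5.50-fold, limma adjusted p = 0.0104). The neuritin gene Nrn1 read 9.73, 7.73, 7.75 and 7.45. Npy1r, a neuropeptide Y receptor gene, read 8.35, 5.23, 7.01 and 5.26. The collagen V chain gene Col5a2 read 8.88, 7.75, 7.01 and 6.32, and the cartilage proteoglycan gene Acan read 8.23, 6.62, 6.83 and 7.22. Dimmer probe sets of Npy1r and Col5a2 differed by -0.02 and 0.85 in mT3 without a call. Lower in mT3 were Thy1, a surface glycoprotein gene of fibroblasts and neurons (7.78, 8.57, 9.99 and 9.57), and the aldehyde dehydrogenase gene Aldh3a1 (4.50, 6.48, 5.70 and 5.72). Of the 81 genes lower in mT3, 17 (21%) were on the interferon list.

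Several genes divided the lines into pairs instead of setting a single line apart. Plac8 read 9.01 in mT3, 8.60 in mT4, 12.59 in mT5 and 12.55 in mT6. The carbonic anhydrase gene Car13 read 7.47, 7.38, 4.68 and 4.02, and the hypoxia-inducible carbonic anhydrase gene Car9 read 7.65, 7.78, 9.63 and 9.52. Spock3, a matrix proteoglycan gene, paired the lines differently at 8.70, 5.72, 8.87 and 5.81, and so did the collagen gene Col8a1 at 7.76, 9.71, 7.51 and 9.60. A dimmer probe set of Spock3 read 4.67, 4.91, 5.12 and 4.71.

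**Figure D4:**
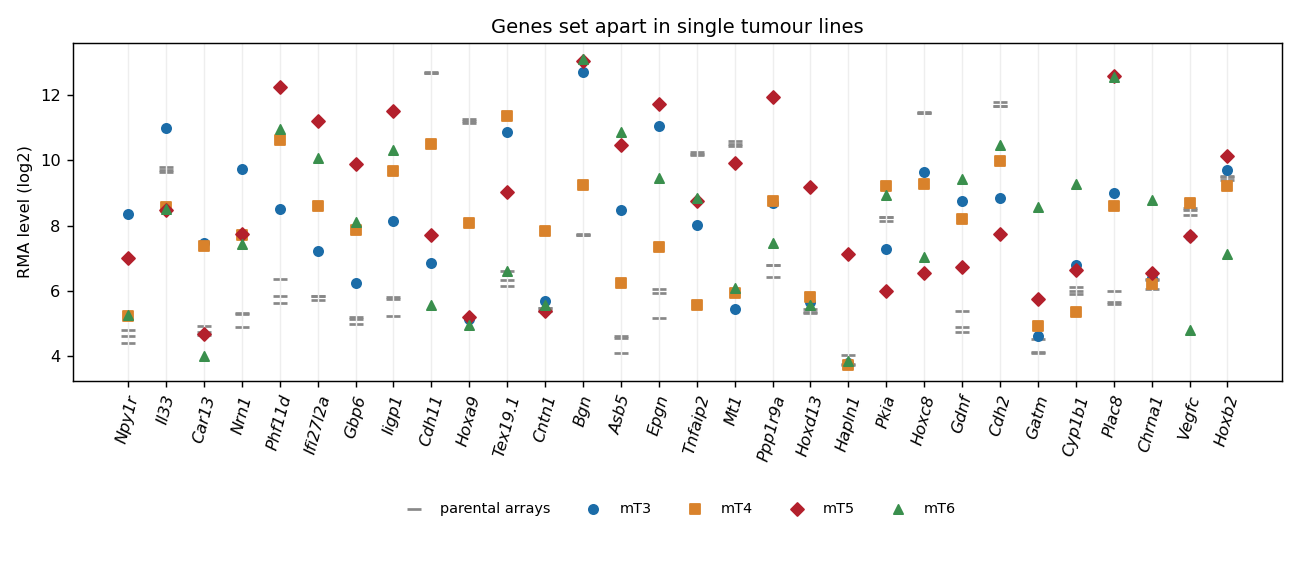
RMA level (y axis, log2) of up to 4 of the largest called differences in each direction for each tumour line (x axis) in the 4 lines (coloured symbols) and the 3 parental arrays (grey dashes). Il33 is apart in mT3 at 10.98, Bgn in mT4 at 9.24, Hoxd13 in mT5 at 9.19 and Gatm in mT6 at 8.58.

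Among 9 neural crest precursor markers 2 were called in the F test (22.2%, against 3.42% of all genes), Zic1 and Tfap2a, and the list's median SD over the lines was 0.37 against 0.13. Snai2 (11.81 to 12.33) and Pax3 (9.07 to 9.91) were bright, Sox10 was at 7.40 to 7.47, and Foxd3 was dim at 4.62 to 4.80 in the lines and 4.59 in parental cells. Of 8 neuroblastoma and sympathetic markers 1 was called (12.5%), Gata3, while Phox2a (4.48 to 4.63), Hand2 (4.80 to 4.86) and Th (5.15 to 5.24) were dim in the 4 lines. Endothelial markers held 1 called gene of 12 (8.33%), Kdr, at 8.44 in mT5 against 7.07 to 7.29, and the defining endothelial genes Pecam1 (4.31 to 4.54) and Cdh5 (4.67 to 4.97) were dim. Erythroid, adipocyte and pericyte markers held 0 called genes of 7, 6 and 9, against 3.42% of all genes. Lists this short can hold 0 at that share. Of 15 fibroblast markers 6 were called (40%, against 3.42% of all genes), with 4 higher and 0 lower in mT5. The list's mean level was 9.31 in mT3, 9.11 in mT4, 9.70 in mT5 and 9.22 in mT6, and 8.72 in parental cells. The part of residual host cells in the differences was not tested, and more cells of a kind and more RNA per cell cannot be told apart.

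Long runs of neighbouring genes moved together in single lines. Chromosome medians were taken over the 9080 placed genes with a mean above the median level of 7.46, where the signal is less compressed. In mT4 the 330 such genes of chromosome 12 had a median of -0.41 against the other lines (1.33-fold), 93.3% of them were below 0, and mT4 was the lowest line in 84.2%. The other lines had medians of 0.10 in mT3, 0.18 in mT5 and 0.13 in mT6 there. In mT5 the 311 genes of chromosome 19 had a median of -0.30, with 90.0% below 0 and mT5 lowest in 79.1%. In mT6 the 518 genes of chromosome 9 had a median of 0.25, with 91.3% above 0 and mT6 highest in 72.4%. The same medians of each parental array against the other parental arrays ran from -0.05 to 0.04 over all chromosomes. Relative to the parental mean, the median of chromosome 12 was -0.54 in mT4 and -0.15 to -0.11 in the other lines. For chromosome 19 it was -0.50 in mT5 and -0.21 to -0.13 in the other lines. For chromosome 9 it was 0.10 in mT6 and -0.12 to -0.11 in the other lines, which thus lay below parental cells while mT6 lay above.

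The shifts ran the length of these chromosomes. In windows of 25 neighbouring genes, all 306 windows of chromosome 12 were below 0 in mT4, from -0.63 to -0.30, with the lowest between Hif1a and Actn1. On chromosome 19 all 287 windows were below 0 in mT5, and on chromosome 9 0 of 494 were below 0 in mT6. Windows of a single sign were not particular to these chromosomes. All were below 0 on chromosome 17 in mT3 (404), chromosomes 3 (436) and 13 (307) in mT5 and chromosome 14 in mT6 (278). No window was below 0 on chromosome 14 in mT4, chromosomes 4 and 12 in mT5 and chromosomes 12, 17 and 19 in mT6. Parental arrays had windows between -0.12 and 0.09. Smaller medians outside the parental range were common and included chromosome 17 in mT3 (-0.14), chromosome 1 in mT4 (0.19) and chromosome 14 in mT6 (-0.18). Of 20 chromosomes, 5 in mT3, 8 in mT4, 7 in mT5 and 4 in mT6 had a median of more than 0.1 in size. Over all placed genes, dim ones included, the medians were -0.22 for chromosome 12 in mT4, -0.16 for chromosome 19 in mT5 and 0.12 for chromosome 9 in mT6. Of the 151 genes called lower in mT4, 20 (13.2%) lay on chromosome 12, which holds 3.45% of the measured genes, and Lamb1, Egln3 and Tnfaip2 were among them. Of the 56 genes called higher in mT6, 10 (17.9%) lay on chromosome 9, with 5.56% of the measured genes. Of the 34 lower in mT5, 1 (2.94%) lay on chromosome 19, with 3.38% of the measured genes. Chromosome 8 held 10 of the 37 placed genes called higher in mT3 (27%), with 5.17% of the measured genes. The mT3 median over its brighter genes was 0.06. The genome of the lines was not measured here.

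**Figure D5:**
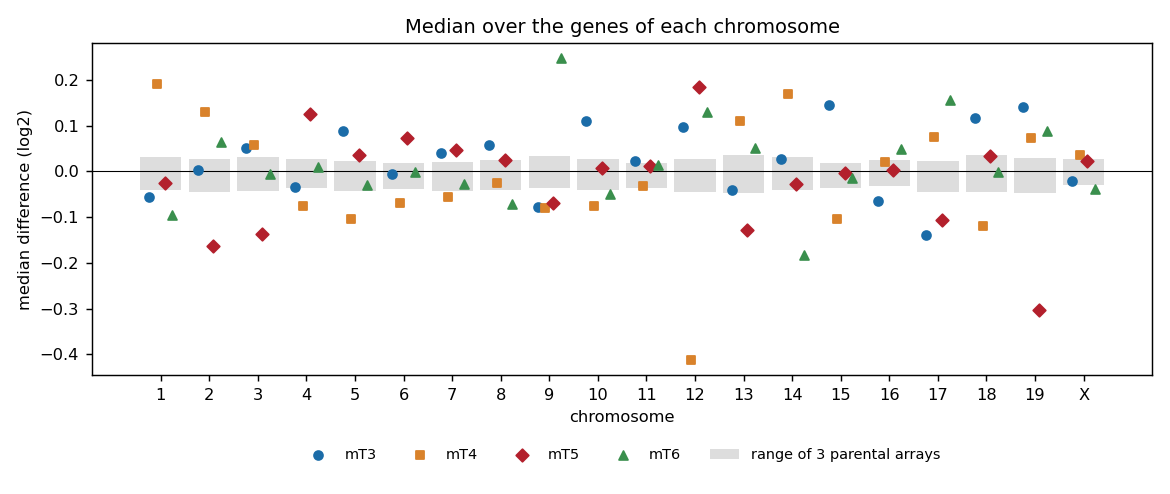
Median difference (y axis, log2) of each tumour line from the mean of the other 3 lines over the brighter genes of each chromosome (x axis). Symbols are the lines, and grey bars span the 3 parental arrays, each against the mean of the other parental arrays. Chromosome 12 in mT4 (-0.41), chromosome 19 in mT5 (-0.30) and chromosome 9 in mT6 (0.25) lie furthest from 0.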

How the data were processed

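RNA was measured on Affymetrix arrays, 1 array per sample, and groups were taken from the sample titles. The authors deposited log2 values per probe set, for which RMA and Partek are named without versions or roles, per the submitters' processing notes. The log2 scale was read from the values. RMA subtracts background, gives all arrays a common distribution and summarises probes, so levels are relative to the whole array and differences of dim genes are understated. For the probe annotation, a genome build was not given in the sources. Sequencing depth does not apply to arrays, and their number limits the precision.

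The platform annotation gave a single symbol to 34945 of 45101 probe sets and several symbols to 932. No symbol was listed for 9160, and 64 were control probe sets. Gene IDs of 34741 were found in the RefSeq table of GRCm38.p6, which also gave the order of genes, and 0 symbols changed. limma (version 3.58.1, R 4.3.3) was fitted over the 34945 probe sets and all 8 arrays, with Benjamini-Hochberg adjustment over them and two-sided tests. Parental arrays formed 1 group, and every other array had its own coefficient. Counts in the text are of 18193 genes by their brightest probe set, which for 1626 genes had the suffix _x_at or _s_at. The fit was tested on simulated data.

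Named genes were fixed anchors, the 6 largest called differences per line and direction, the 10 genes of largest SD over the lines, and the 3 called members of largest SD in each list. Accession-like names were left out. Other genes were named to complete a list or after their values were seen, among them Agtr2 and further members of the Hox and marker lists. Trp53 and Ddx3y were not analysed here. The lines, lists and rule were chosen with earlier results of these data known. The alternatives were other probe set choices, filters, variance priors, scalings, fold thresholds, a pooled GFP-labelled array and leaving out each array.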

Additional observations from a re-analysis of the deposited data

Results flagged for a closer look

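Single lines stood far from the other 3 in 24 genes of the text, where the gap to the nearest line took up a larger share of the range than Dixon's 95% critical value for 4 samples. Chance alone gives about 1 such group in 20, and over all genes 1053 of 18193 (5.79%) met it. The 113 genes named by the rule and the 38 others examined were picked in part for a large difference in a single line, so their share says nothing beyond that choice. The F test called 21 of the 24. In mT3 these were Il33 at 10.98, Nrn1 at 9.73 and, without a call, Sox10 at 7.47. In mT4 they were Hoxa9 at 8.08, Cntn1 at 7.83, Ucn2 at 7.28, Dsg2 at 7.98, Hoxa10 at 5.78 without a call and, as the lowest line, Bgn at 9.24. In mT5 they were Mt1 at 9.93, Hoxd13 at 9.19, Hoxd10 at 6.92, Hoxd11 at 5.40, Kdr at 8.44, Hapln1 at 7.14, Trp63 at 8.86, Dmrta1 at 7.17, Mmp12 at 6.49, Erbb3 at 7.48, Plagl1 at 10.82 and Trp53inp1 at 11.19. In mT6 they were Chrna1 at 8.79, Lrp2 at 7.52 and, without a call, Cdh5 at 4.97.

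Array controls were apart in mT3 by the same measure, with bioB at 9.17 and the poly-A controls at 8.43. Their part in the low interferon levels of mT3 was not tested.

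Among 10092 probe sets without a single gene symbol, which entered no comparison, 146 were at least 2-fold apart among the lines, against 17 among the parental arrays.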

How the results depend on the processing

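No paired analysis was possible because the parental and tumour arrays share only the number 3 and each line is 1 array. Counts of called genes depended most on the spread behind the test. With the GFP-labelled array pooled with the parental arrays, limma called 0 genes in the F test, 0 in mT3, mT4 and mT6 and 39 in mT5. Leaving out each array in turn, the counts ran from 0 to 783 in the F test, 0 to 167 in mT3, 0 to 253 in mT4, 0 to 304 in mT5 and 0 to 163 in mT6, and each 0 was without parental array 3. The unadjusted counts for these settings were 484 to 837 genes in the F test. Without mT5 the F test called 331.

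At a 1.5-fold threshold the counts were 202, 534, 591 and 206 for mT3 to mT6, with no fold threshold 202, 573, 644 and 206, and at 4-fold 13, 21, 47 and 15, with 160 in the F test. A gap of 2-fold to the nearest line left 48, 70, 129 and 39. Above the median level mT5 had 172.

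The interferon median in mT3 was -1.13 with the mean of probe sets and -1.39 above the median level. Leaving out each other line, it ran from -1.55 to -0.88 in mT3, -0.61 to 0.31 in mT4, 0.95 to 1.53 in mT5 and -0.35 to 0.57 in mT6. Above the median level, pairs of lines had 239 (mT3 and mT4), 259 (mT3 and mT5), 228 (mT3 and mT6), 450 (mT4 and mT5), 249 (mT4 and mT6) and 275 (mT5 and mT6) probe sets 2-fold apart, fewer because fewer were counted. Chromosome medians were -0.41, -0.14, -0.30 and 0.25 in the brighter genes of chromosomes 12, 17, 19 and 9.

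Of 113 named genes, 93 had a limma call in the line furthest from the mean of the other 3 lines. Without parental array 3 all 93 lost it, and the other 20 had no such call to lose. With the GFP-labelled array pooled, 79 of the 93 lost it. Repeated quantile normalization and centring changed 0 of the calls of the 113 genes. Mt1 reversed to -0.19 in mT5 without _x_at and _s_at probe sets, when its other probe set is read. The cause of the other changes was not tested.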
